A study of Homo sapiens with 4 samples.

Results

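The transforming growth factor beta (TGF-beta) ligands TGFB1, TGFB2 and TGFB3, the pathway inhibitor SMAD7, the matrix metalloproteinases MMP2 and MMP14 and the tissue inhibitors of metalloproteinases TIMP1, TIMP2 and TIMP3 were followed in a study of berberine and the viability of HepG2 cells. Every probe carrying one of these 9 gene names was taken, which gave 9 of the 17778 named genes and 10 of the 26423 probes in the deposited table, 2 of them for TGFB2 and 1 for each other gene. HepG2 is a human hepatocellular carcinoma line, and berberine is a plant alkaloid. Expression was measured on 4 one-colour arrays with Cy5-labelled amplified RNA. Of these, 2 samples came from HepG2 cells given 26.95 µM berberine for 24 hours and 2 from HepG2 cells without berberine, and both groups grew in DMEM with serum and antibiotics. Another label field of the same samples instead names MDI-induced differentiation for 48 hours in all 4 samples, with 13.47 µM berberine in the treated samples, and this conflict was not resolved. Nothing in the labels says that replicates were separate cultures, so the spread between them may be technical.

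The gene names were those of mouse probes. All values below are therefore signals of mouse probes in RNA labelled as human, and the table names 528 genes as mouse olfactory receptors. These olfactory receptor genes, known for their use in sensory neurons of the nose, had a median level of 6.05 and a 95th percentile of 9.24 on the log2(intensity + 1) scale after quantile normalization. A level in that range is called the background range here. Median intensities as deposited were 77 and 85 in the berberine samples and 90 and 62 in the controls, and 269 probes of control 2 were below 0. A level is used here only to say whether a probe stood out of that range, since probes of different genes cannot be compared as amounts of RNA. In bulk RNA, fewer cells of a type and less RNA per cell cannot be told apart.

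TGF-beta ligands are secreted in a latent complex and, once released, bind a pair of receptor kinases that phosphorylate SMAD2 and SMAD3. These factors enter the nucleus with SMAD4 and change transcription of matrix genes, protease inhibitors and the feedback inhibitor SMAD7. Matrix metalloproteinases cut collagens and other matrix proteins, MMP14 at the cell surface is known for activating the MMP2 proenzyme, and TIMPs bind and block these enzymes. TIMP2 has a double role, because it also bridges MMP14 and the MMP2 proenzyme during that activation. In liver the pathway is best known for matrix deposition in fibrosis and for restraint of hepatocyte growth.

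The promoters of TGFB1, TIMP1 and TGFB2 are shown because these genes stand for the members that were higher (TGFB1 and TIMP1) and for a ligand of the same family that was not (the brighter TGFB2 probe). The sequences are the 250 bases before the start site in RefSeq's human assembly GRCh38.p14, read 5′ to 3′ on the gene's strand. They lie at chr19:41353923-41354172 on the minus strand for TGFB1, at chrX:47582186-47582435 on the plus strand for TIMP1 and at chr1:218345086-218345335 on the plus strand for TGFB2. Capitals mark matches, on either strand, to an AP-1 sequence (TGAGTNA), the core of the cyclic AMP response element (TGACGT), a GC box (GGGCGG) or an EGR sequence (GCGNGGGCG).
TGFB1: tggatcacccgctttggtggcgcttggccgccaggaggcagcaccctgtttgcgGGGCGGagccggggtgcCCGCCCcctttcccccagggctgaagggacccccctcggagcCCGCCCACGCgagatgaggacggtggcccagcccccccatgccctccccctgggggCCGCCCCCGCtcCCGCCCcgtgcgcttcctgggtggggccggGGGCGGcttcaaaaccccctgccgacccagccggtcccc
TIMP1: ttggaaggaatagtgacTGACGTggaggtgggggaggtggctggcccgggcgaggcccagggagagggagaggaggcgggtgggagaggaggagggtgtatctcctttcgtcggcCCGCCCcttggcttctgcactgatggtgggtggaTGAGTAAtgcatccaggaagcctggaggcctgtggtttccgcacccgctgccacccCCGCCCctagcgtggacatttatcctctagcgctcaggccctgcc
TGFB2: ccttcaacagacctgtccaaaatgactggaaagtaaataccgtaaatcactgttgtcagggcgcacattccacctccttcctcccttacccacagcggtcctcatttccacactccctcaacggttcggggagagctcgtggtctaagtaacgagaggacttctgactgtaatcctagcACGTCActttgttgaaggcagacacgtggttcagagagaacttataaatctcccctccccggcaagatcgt
The TGFB1 window held 6 GC boxes and 2 EGR sequences, and each EGR sequence overlapped a GC box. The TIMP1 window held 1 AP-1 sequence, 95 to 101 bases before the start, with 1 response element core and 2 GC boxes. The TGFB2 window held 1 response element core and none of the other 3 sequences. Among 35116 human promoter windows of this length, 10.8% held the AP-1 sequence, 7.10% the response element core, 42.6% a GC box and 8.41% the EGR sequence. RefSeq gave windows for 7 of the 9 genes, and of those only TIMP1 held the AP-1 sequence and only TGFB1 the EGR sequence. The SMAD7 windows held none of these sequences, and the TIMP3 window held 5 GC boxes. A match describes letters only, and nothing about the direction of a gene is read from it.

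Among the ligands, TGFB1 was higher with berberine, and the brighter TGFB2 probe was slightly lower. TGFB1 encodes the most widely expressed isoform of the cytokine. Its probe read 1347 and 1545 in the berberine samples and 714 and 590 in the controls as deposited. After quantile normalization these were log2 levels of 10.66 and 10.61 with berberine and 9.28 and 9.21 in the controls. Both berberine samples stood far above both controls, which lay at the upper edge of the background range, so the TGFB1 fold is imprecise. The group means were 10.63 ± 0.03 and 9.24 ± 0.05 (SD, n = 2 each), a 2.62-fold higher signal with berberine, and the differences over the 4 pairs of a berberine and a control sample ran from 1.33 to 1.45. That difference ranked 71 from the top among 17778 genes, but TGFB1 was chosen by this same difference, so nothing is read from the rank. The median replicate SD among genes as bright as TGFB1 (the brightest of 10 equal groups by signal) was 0.080.

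TGFB2 encodes the isoform known for roles in development and in epithelial-mesenchymal transition. The brighter of its 2 probes read 955 and 1102 in the berberine samples and 1525 and 1325 in the controls. Both berberine samples were below both controls. On the log2 scale the berberine samples were at 10.17 and 10.12 and the controls at 10.35 in both cases, a difference of -0.20. That difference was larger than the spread between replicates, whose pooled SD was 0.027, and about the size of the median absolute difference of 0.208 in that brightest group of genes. It was -0.47 with values as deposited and -0.58 after median centring, more than 1.5 times as large.

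The second TGFB2 probe pointed the other way and was among the dimmest signals. It read 30 and 36 in the berberine samples and 23 and -7 in the controls. Its log2 levels were 4.90 and 5.04 with berberine and 4.07 and 3.17 in the controls, a difference of 1.35 with a control SD of 0.63. Its mean lay below that of nearly all olfactory receptor genes, of which 5.30% were dimmer. The difference depended on the scale, being 2.79 as deposited and 0.38 with a pseudocount of 50. The 2 probes named for this gene therefore did not give 1 direction.

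TGFB3, the third isoform, gave a small difference. Its probe read 232 and 328 in the berberine samples and 262 and 180 in the controls, so the groups overlapped as deposited. After quantile normalization the levels were 8.07 and 8.33 with berberine and 7.85 and 7.61 in the controls, which no longer overlapped. The difference was 0.47, with a pooled replicate SD of 0.177, and it was 0.23 after median centring.

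SMAD7 encodes the inhibitory SMAD that blocks the receptor and that TGF-beta itself induces. It read 1450 and 1683 in the berberine samples and 1541 and 1062 in the controls, and as deposited the groups overlapped. The normalized levels were 10.75 and 10.73 with berberine and 10.37 and 10.04 in the controls, a difference of 0.53. The berberine samples nearly coincided, while the controls had an SD of 0.23, against a median replicate SD of 0.080 in the brightest group of genes. The value was 0.29 as deposited and 0.17 after median centring. SMAD7, TGFB1 and the brighter TGFB2 probe were the 3 probes with means over the 4 samples above the background range. Among all 17778 genes, 1626 had means above it. Of the TGFB1 samples, only the controls lay at the upper edge of that range.

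**Figure D1:**
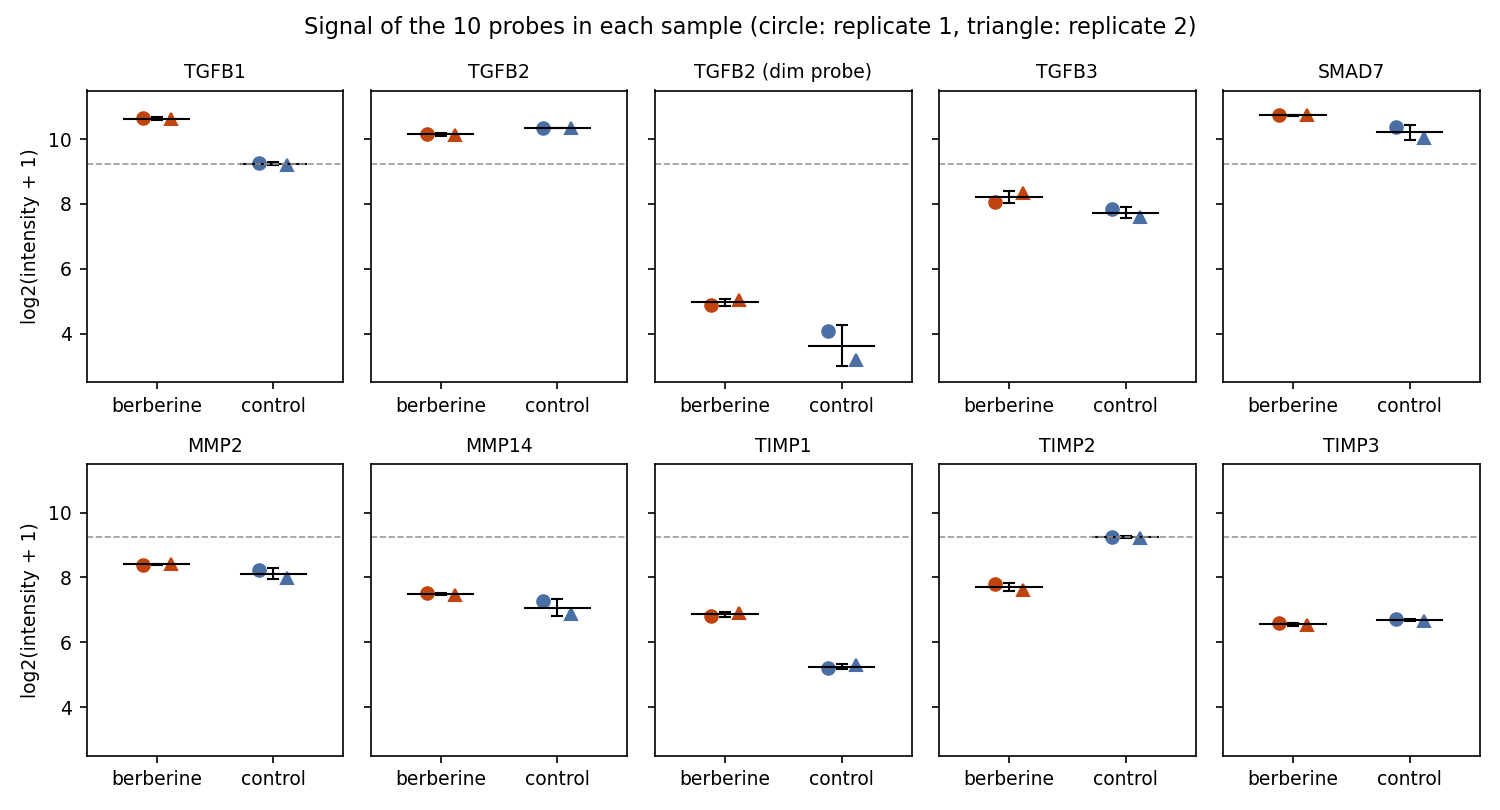
Log2(intensity + 1) after quantile normalization at each of the 10 probes, with berberine left and control right in every panel, points for samples, and bars for the mean and SD (n = 2 each). The dashed line is the 95th percentile of olfactory receptor genes (9.24). TGFB1 and TIMP1 sit higher with berberine, TIMP2 lower, and the other probes differ by less, except the dim TGFB2 probe with its widely spread controls.

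The metalloproteinases differed little. MMP2, gelatinase A, read 288 and 346 in the berberine samples and 346 and 240 in the controls. Its normalized levels were 8.39 and 8.41 with berberine and 8.24 and 8.00 in the controls, a difference of 0.28, and of 0.0177 after median centring. MMP14, the membrane-type enzyme that activates the MMP2 proenzyme, read 163 and 182 in the berberine samples and 174 and 101 in the controls. Its levels were 7.51 and 7.47 with berberine and 7.26 and 6.88 in the controls, a difference of 0.42, and of 0.26 after median centring. For both genes control 2 was the low sample, and without control 2 the differences were 0.157 for MMP2 and 0.223 for MMP14.

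The 3 inhibitors went different ways. TIMP1, a secreted inhibitor induced by cytokines and growth factors, read 106 and 125 in the berberine samples and 43 and 22 in the controls. Both berberine samples were above both controls, on a probe that was dim throughout. The log2 levels were 6.81 and 6.91 with berberine and 5.20 and 5.29 in the controls, with means of 6.86 ± 0.07 and 5.25 ± 0.07 (SD, n = 2 each). This was a 3.06-fold higher signal. All 4 values lay in the background range, and 50% of olfactory receptor genes were dimmer than the TIMP1 mean. Because the signal was small, a pseudocount of 50 brought the log2 difference to 0.93, so the fold is imprecise.

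TIMP2, the inhibitor with the double role in MMP2 activation, was lower with berberine. Its probe read 193 and 203 in the berberine samples and 706 and 600 in the controls. The log2 levels were 7.79 and 7.62 with berberine and 9.26 and 9.23 in the controls, and both berberine samples lay far below both controls. Means were 7.70 ± 0.12 and 9.24 ± 0.02 (SD, n = 2 each), a difference of -1.54, or a 2.91-fold higher signal in the controls. The mean over the 4 samples, 8.47, and both berberine values lay in the background range, and the controls lay at its upper edge, so this fold is imprecise too. The pairwise differences ran from -1.64 to -1.44, and the value stayed between -1.83 and -1.35 under the other scalings.

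TIMP3, the inhibitor that binds to the matrix, read 89 and 96 in the berberine samples and 118 and 82 in the controls. The log2 levels were 6.59 and 6.52 with berberine and 6.72 and 6.65 in the controls. The difference of -0.13, and of -0.20 after median centring, was small beside those of TIMP1 and TIMP2, and the groups overlapped as deposited.

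**Figure D2:**
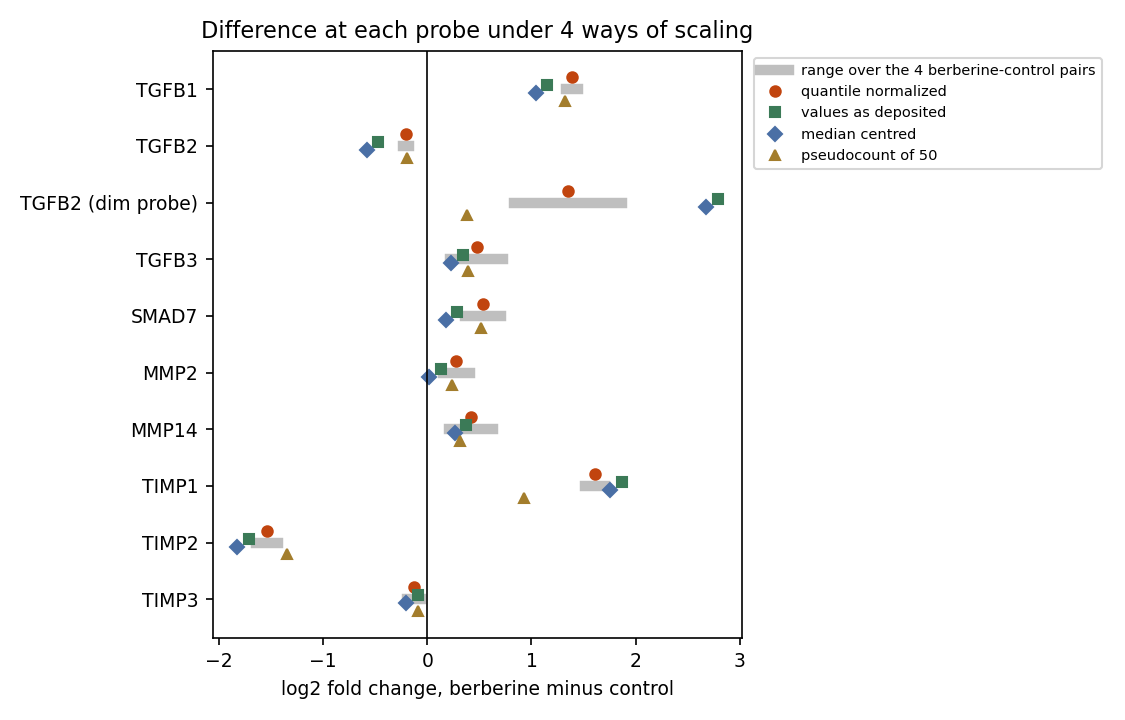
Log2 fold change (berberine minus control) at each probe with quantile-normalized values, values as deposited, median-centred values and a pseudocount of 50, with a grey bar for the range over the 4 pairs of a berberine and a control sample. No probe changed sign. TGFB1 stayed between 1.04 and 1.39, TIMP1 between 0.93 and 1.87 and TIMP2 between -1.83 and -1.35, while SMAD7 and MMP2 shrank under median centring.

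The set was chosen by the log2 fold changes of TGFB1 and TIMP1 in an earlier account of this same comparison, to which related genes were added, so outcomes of the members in this comparison are given as a description and not as tests. The groups did not overlap at 10 of the 10 probes after quantile normalization, 7 higher and 3 lower. Over all 26423 probes, 21.0% had both berberine samples above both controls and 22.5% had both below. As deposited, 5 of the 10 probes overlapped, 3 were higher and 2 lower. The shares over all probes were computed only after quantile normalization, so these deposited counts have no share to stand beside. In the limma test over 17778 genes, 0.0506% of genes passed an adjusted p of 0.05 (0.0450% higher and 0.00562% lower) and 0 of the 9 members did, with 5 members at an unadjusted p under 0.05, against 13.0% of all genes. When limma's variance prior was allowed to follow the signal, called the trend test below, 1.46% of genes passed (0.962% higher and 0.501% lower). So did 3 of the 9 members, TGFB1 and TIMP1 as higher and TIMP2 as lower. Without any single sample, the trend test passed 0 genes, members included. Nothing is read from these counts, since the contrast chose the genes.

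The genes whose 4 values moved most like TGFB1, by the root mean square difference of centred log2 values over the 4 samples, were ARHGAP21 (0.045), KHDRBS3 (0.050) and NMD3 (0.055). For TIMP1 they were the angiogenic factor VEGFA (0.030), the chromatin protein EPC1 (0.032) and the mRNA decay factor ZFP36L1 (0.036). They were drawn from genes brighter than the median gene. VEGFA read 12.06 and 12.08 with berberine and 10.37 and 10.48 in the controls, far above the background range in which the TIMP1 probe lay. With 4 samples such a ranking is a description only.

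The rest of the pathway was followed in 8 lists holding 173 genes, of which 161 were measured, with no member among them. None of the 161 passed the main limma test, 22 had an unadjusted limma p under 0.05 (13.7%, against 13.0% of all genes) and 5 passed the trend test (3.11%, against 1.46%). The lists were drawn up with earlier results of these data known, so nothing is read from these shares. The median log2 difference of the 161 genes was -0.011, against -0.0091 for all genes. Of the 161 genes, 22 had means above the background range, as did 1626 of all 17778 genes. The medians of the 8 lists lay between -0.057 (matrix proteins) and 0.12 (receptors). With values as deposited they lay between -0.049 and 0.16, where the median of all genes was 0.079, and median centring shifts every gene from there by 1 constant. Of the 8 list medians, 6 changed sign as deposited or after median centring and 2 did not, so most of their directions depended on the scaling.

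Among 27 other ligands of the family, 0 passed either test, and 2 were higher and 2 lower at an unadjusted limma p under 0.05. GDF15, a stress-induced ligand, was at 0.48 (limma adjusted p = 0.306), and at 0.30 after median centring. MSTN, myostatin, was at -0.68 (limma adjusted p = 0.192). A pseudocount of 50 brought MSTN to -0.41. Among 19 genes of latency and ligand binding, 1 passed the trend test, LTBP4, a latent TGF-beta binding protein that anchors the latent complex in the matrix. LTBP4 levels were 9.45 and 9.61 in the berberine samples and 8.33 and 8.40 in the controls, a difference of 1.16 (SE 0.121). Its limma adjusted p was 0.107 in the main test and 0.0163 with the trend, in a range of 0.0163 to 1 over the settings compared. LRRC32, which tethers latent TGF-beta to the cell surface, was at -0.92 (limma adjusted p = 0.231).

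Among 15 receptors, 1 passed the trend test. This was ACVR1, a type I receptor of the bone morphogenetic protein and activin branch, with levels of 9.01 and 9.17 in the berberine samples and 7.43 and 7.85 in the controls. The berberine samples exceeded both controls by more than the controls differed. The difference was 1.45 (SE 0.189), with a limma adjusted p of 0.130 in the main test and 0.0351 with the trend, in a range of 0.0318 to 1. BMPR2, the type II receptor of the same branch, was at 0.38 (limma adjusted p = 0.307), or 0.23 if the pseudocount was 50. Of the receptors, 3 were higher and 1 lower at an unadjusted limma p under 0.05. Among 14 SMAD factors and regulators 0 passed either test, with 1 higher and 1 lower at an unadjusted limma p under 0.05. The SMAD corepressor SKI was at 0.56 (limma adjusted p = 0.247) and FOXH1, a SMAD partner, at -0.42 (limma adjusted p = 0.335).

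Among 20 target genes of TGF-beta, 1 passed the trend test. ID2, an inhibitor of basic helix-loop-helix factors that TGF-beta is known to repress in epithelial cells and bone morphogenetic proteins to induce, had levels of 9.37 and 9.28 in the berberine samples and 8.19 and 8.42 in the controls. The groups did not overlap, and the difference was 1.02 (SE 0.136), with a limma adjusted p of 0.133 in the main test and 0.0318 with the trend, in a range of 0.0318 to 1. FN1, fibronectin, was at 1.18, with a control SD of 0.54 and a limma adjusted p of 0.305. In the whole list, 2 genes were higher and 1 lower at an unadjusted limma p under 0.05.

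Among 19 other metalloproteinases, 0 passed either test and 1 was higher at an unadjusted limma p under 0.05. MMP12, the macrophage elastase, was at 0.69 (limma adjusted p = 0.434), at 0.33 with a pseudocount of 50, and at 0.38 without control 1 and 0.43 without berberine 1. MMP24, a membrane-type enzyme, was at 0.36 (limma adjusted p = 0.342), but at 0.14 as deposited and 0.023 after median centring. Among 22 other proteases and inhibitors, PLAU, the urokinase that converts plasminogen to plasmin, passed the trend test. Its levels were 7.18 and 7.28 in the berberine samples and 8.66 and 9.30 in the controls, so both berberine samples lay below both controls. The difference was -1.75 (SE 0.251), with a limma adjusted p of 0.149 in the main test and 0.0487 with the trend, in a range of 0.0487 to 0.638. ADAMTS4, an aggrecanase, was at -0.50 (limma adjusted p = 0.303), at -0.22 as deposited, at -0.33 after median centring and at -0.24 with a pseudocount of 50.

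Among 25 matrix proteins, LAMC1, the laminin gamma 1 chain of basement membranes, passed the trend test. LAMC1 was bright, with levels of 11.62 and 11.64 in the berberine samples and 12.29 and 12.25 in the controls, and the groups lay apart. The difference was -0.64 (SE 0.106), with a limma adjusted p of 0.188 in the main test and 0.0261 with the trend, in a range of 0.0261 to 1. COL4A1, a collagen chain of the same membranes, was at 0.68 (limma adjusted p = 0.311), and 2 genes were higher and 1 lower in this list at an unadjusted limma p under 0.05. Of the 5 genes past the trend test, LAMC1 had a mean above the background range and LTBP4, ACVR1, ID2 and PLAU did not.

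**Figure D3:**
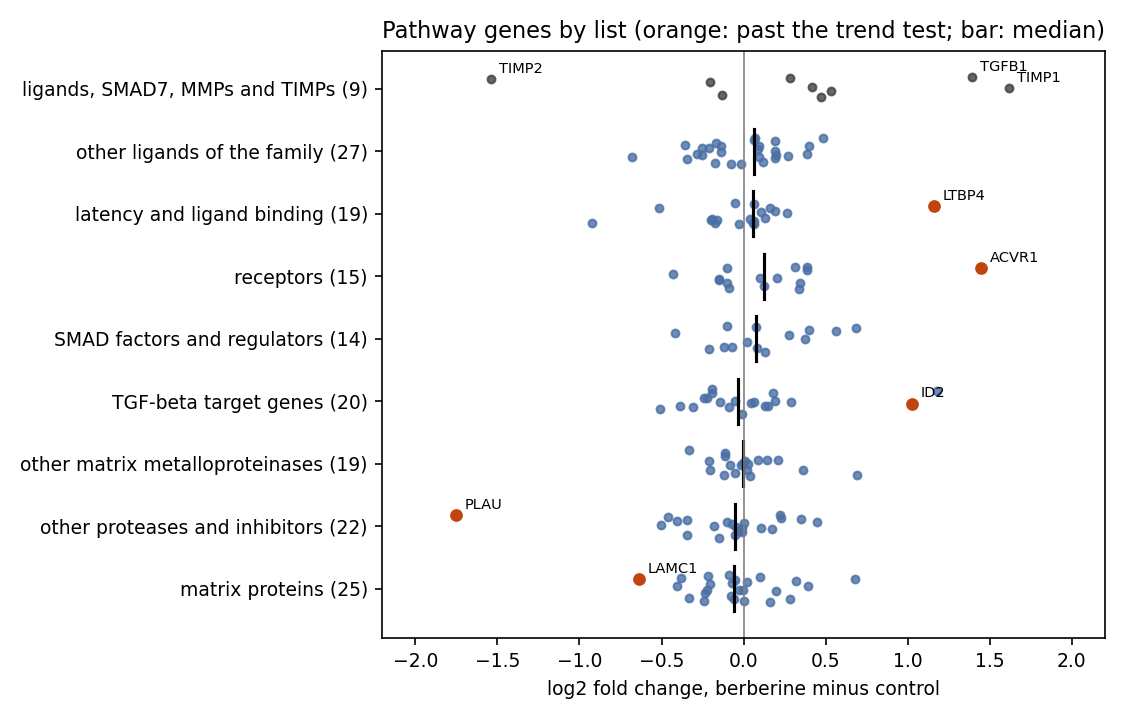
Log2 fold change (berberine minus control) of the named ligands, SMAD7, MMPs and TIMPs (top row, the brighter probe for TGFB2) and of the genes in the 8 pathway lists. The number of genes is in brackets, a bar marks each list's median and orange marks list genes past the trend test. The top row is grey throughout, although TGFB1, TIMP1 and TIMP2 also passed that test. List medians lie between -0.057 and 0.12, while LTBP4, ACVR1, ID2, PLAU and LAMC1 stand away from them. Of the 8 medians, 6 change sign under another scaling.

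**Figure D4:**
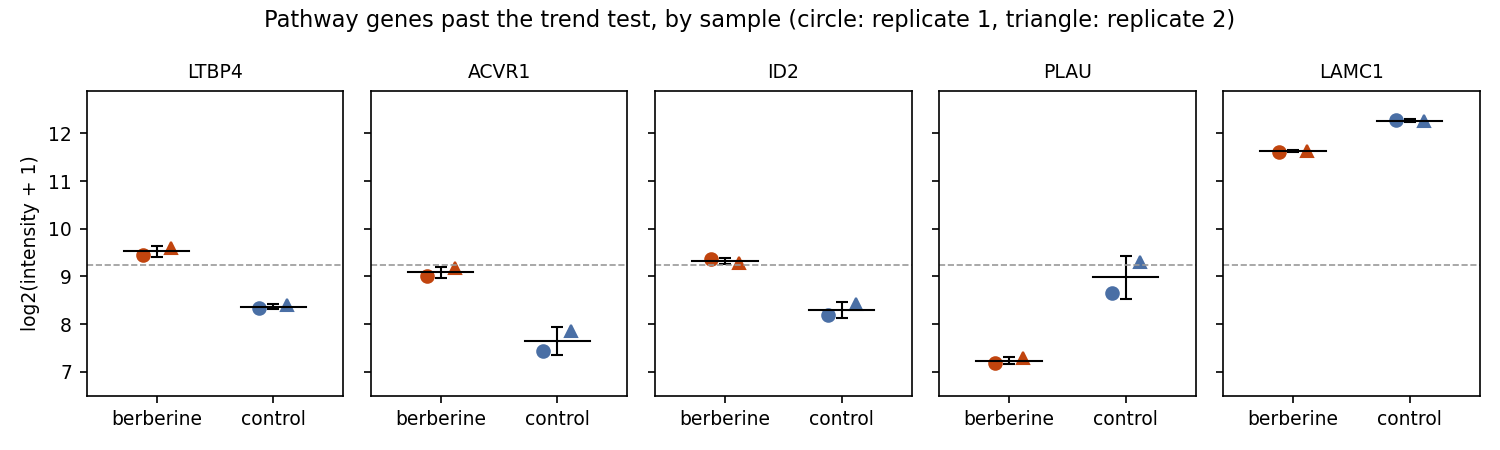
Log2(intensity + 1) of the 5 pathway genes past the trend test, with berberine left and control right, points for samples and bars for the mean and SD (n = 2 each). The dashed line is the 95th percentile of olfactory receptor genes (9.24). LTBP4, ACVR1 and ID2 were higher with berberine, and PLAU and LAMC1 lower.

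Markers of the labelled cells and of other cell types were all in the background range by their means. Most genes were, since only 1626 of all 17778 had means above it. None of the markers passed the main limma test or the trend test. Of the 10 measured hepatocyte markers, ALB, albumin, read 8.10 and 8.20 in the berberine samples and 8.65 and 8.46 in the controls. APOA2, an apolipoprotein of high-density lipoprotein, read 7.30 and 9.04 in the berberine samples and 8.92 and 8.98 in the controls, so berberine 1 alone was low. AFP, which HepG2 cells are known to secrete, read 4.67 and 4.93 in the berberine samples and 4.51 and 4.90 in the controls. Every AFP value lay below the olfactory receptor median of 6.05, so the AFP probe does not bear out the HepG2 label. The summed intensity of the hepatocyte markers, as deposited, was 1016 to 1474 with berberine and 1282 to 1703 in the controls. ALB was the 1 gene at an unadjusted limma p under 0.05, at -0.41.

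Fibroblast and stellate markers (10 measured), from cells that make much of the liver's TIMP1 and collagen, summed to 992 to 1056 with berberine and 785 to 1081 in the controls. ACTA2 was at 0.19 and DES at -0.21, and POSTN, periostin, was the 1 gene at an unadjusted limma p under 0.05, at 0.96 (limma adjusted p = 0.185). Adipocyte markers (9 measured) summed to 906 to 1030 with berberine and 950 to 1182 in the controls, and their members differed in both directions. FABP4, the fatty acid binding protein of adipocytes, was at 1.00 (limma adjusted p = 0.143), RETN, resistin, at -1.20 (limma adjusted p = 0.233), ADIPOQ, adiponectin, at -0.64 (limma adjusted p = 0.350) and PLIN1, which coats lipid droplets, at -0.09. The first 3 of these had an unadjusted limma p under 0.05.

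Macrophage markers (6 measured) summed to 754 to 855 with berberine and 618 to 829 in the controls, with CD14 at 0.40 (limma adjusted p = 0.332), the 1 gene at an unadjusted limma p under 0.05, and CD68 at 0.023. Endothelial markers (6 measured) summed to 979 to 1106 with berberine and 1034 to 1356 in the controls, with KDR at -0.13, TIE1 at -0.19 and an unadjusted limma p under 0.05 for 0 genes. None of these markers read 0 or less in any sample, and the ranges of summed intensity overlapped between the groups in all 5 lists. The sums were of deposited, not normalized, values. In every list control 1 was above control 2 and berberine 2 above berberine 1, as were the medians of the arrays. The overlap therefore says little about the markers. The part of other cell types in the results was not tested.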

How the data were processed

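Per the labels' protocols, RNA was purified on columns and amplified, and the Cy5 label was added. Values were deposited by the authors as whole-number, linear intensity for each probe. How they were scanned, background-corrected or normalized is not given in the sources used here. Medians of the log2 values spanned 0.531, above the 0.2 allowed, so intensities were quantile normalized over 26423 probes, floored at 0 and taken as log2(value + 1). Of the probes, 20377 carried 1 gene symbol each, 0 several and 6046 none. A gene was tested through its brightest probe with limma 3.58.1 in R 4.3.3 (2-sided, all 4 samples, 2 residual degrees of freedom, no block, Benjamini-Hochberg over 17778 genes). A check on simulated data set a bound only on the mean error of log2 fold changes, so it does not vouch for the p-values. An exact permutation test in this design cannot go below 0.333. Older list symbols were matched through RefSeq synonyms. Named genes were all member probes, the 2 smallest p-values of each pathway list, the 2 brightest of each marker list and the 3 closest patterns to TGFB1 and TIMP1. AFP, POSTN, FABP4, RETN, ID1, COL6A2, TNC, TIMP4, BMP10, MMP15 and the genes closest to TIMP2 were named after their values were seen. Members and lists were chosen with earlier results of these data known. Figures used matplotlib 3.10.9 in Python 3.11.15. The number of arrays limits the precision.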

Additional observations from a re-analysis of the deposited data

How the results depend on the processing

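The number of genes past the limma threshold was 9 and moved with nearly every choice. It was 2 with values as deposited, 0 with median centring, with each probe as its own row, and with the replicate number as a block, 251 with a pseudocount of 50, 138 without the dimmest 30% of genes, and 260 with an intensity trend. It was 8 with the mean of a gene's probes and 9 with the robust option. It was 0 to 0 without single samples, both in the main test and in the trend test, where leaving samples out was chosen after seeing the data. Where the limma count was 0, the genes at an unadjusted p under 0.05 numbered 2244 with median centring, 1878 with the block, 1312 to 2763 without single samples and 1380 to 3098 in the trend test without them, and 3101 probes with each probe as its own row. The count of pathway genes past the threshold was 0, and it was 4 with a pseudocount of 50, 1 without the dimmest genes and 5 with the trend. For the 9 members it was 0, and 3 in each of these 3 settings. With the replicate block 0 of all genes passed, members and pathway genes included. Since 0 of the members and pathway genes had passed without it, this does not show whether the replicate number matters. Same-numbered samples were linked only by that number, and their deviations correlated at 0.090 over 17778 genes. Single genes could still move with the number. ID1 was at 7.60 and 9.11 in berberine 1 and 2 and at 7.88 and 9.28 in control 1 and 2. COL6A2, at 7.28 and 8.66 and at 7.35 and 9.07 in the same order, rose likewise. TNC, at 7.89 and 8.75 and at 7.79 and 8.86, did too, as did TIMP4 and BMP10. MMP15, at 7.53 and 7.44 and at 8.18 and 6.61, fell with the number in both groups, though little with berberine. Whether the numbers mark a batch was not tested.

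For single probes, 20 of 30 values under another scaling moved by more than the replicate SD, and 0 changed sign. The log2 difference of TGFB1, 1.39, was 1.15 as deposited, 1.04 with median centring and 1.32 with a pseudocount of 50. In the same order TIMP1 (1.61) was 1.87, 1.75 and 0.93, TIMP2 (-1.54) was -1.71, -1.83 and -1.35, and the dim TGFB2 probe (1.35) was 2.79, 2.68 and 0.38. As deposited and with median centring, the brighter TGFB2 probe was -0.47 and -0.58, SMAD7 0.29 and 0.17, and MMP2 0.13 and 0.0177. Median centring gave 0.23 for TGFB3 and -0.20 for TIMP3. Of 287 values of named pathway genes, none of them past the main threshold, 10 passed it and 1 turned sign, ACTA2 at -0.070 with median centring. The causes were not tested. TIMP1, TIMP2 and the dim TGFB2 probe had means in the background range.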

Other observations

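TIMP2, which was lower with berberine, was followed by the same measure of likeness as TGFB1 and TIMP1, a choice made after its values were seen. Among genes brighter than the median gene, the closest patterns over the 4 samples were UBE2N, a ubiquitin-conjugating enzyme (root mean square difference 0.073), RAD54L, a recombination repair factor (0.074), and NGFRAP1 (0.098). UBE2N read 11.79 and 11.73 on the log2 scale in the berberine samples and 13.16 and 13.26 in the controls, and RAD54L 9.23 and 9.15 in the berberine samples and 10.64 and 10.56 in the controls.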
